A study of Mus musculus with 6 samples.

Results

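The 9 genes described here lie beside Tbx1 on mouse chromosome 16, in the stretch equivalent to human 22q11, and were followed in embryos with a mesodermal Tbx1 knockout. These are Hira, Gnb1l, Txnrd2, Arvcf, Dgcr8, Dgcr2, Ranbp1, Slc25a1 and Cdc45, and they were chosen by gene symbol, with no threshold on their measured levels. They make up 9 of 18193 genes named by the array and are read by 23 of its 45101 probe sets. Tissue was dissected at embryonic day 11.5 around the developing inner ear, that is the otic vesicle of epithelium and the periotic mesenchyme that encloses it. Mest-KO pools carried a T-Cre conditional Tbx1 knockout, and control pools were T-Cre conditional Tbx1 heterozygotes, so that both genotypes carried the Cre and neither was wild type. T-Cre acts in mesoderm, which leaves Tbx1 of the otic epithelium in place. Each array held RNA from the left and right ears of 3 pooled embryos of the same genotype, there were 3 arrays of each genotype, and the labels call them biological replicates.

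Deletions at 22q11 in people remove a copy of TBX1 along with these neighbours and cause DiGeorge or velocardiofacial syndrome, with defects of the heart, palate, thymus and ear. In mice, loss of Tbx1 on its own gives many of these defects, and Tbx1 encodes a T-box transcription factor needed in both the otic epithelium and the mesenchyme around it. The neighbours have separate roles in most cells: cutting of microRNA precursors (Dgcr8), histone deposition (Hira), DNA replication (Cdc45), nuclear transport (Ranbp1), mitochondrial metabolism (Txnrd2, Slc25a1) and cell contact (Arvcf). A conditional allele is made to delete part of Tbx1 alone, and the transcripts of the neighbouring genes were compared between the genotypes.

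None of the 9 neighbours passed the test for a change. With 1 probe set for each gene, 7 were higher and 2 lower in Mest-KO, the largest difference was 0.27 on the log2 scale (Arvcf), and the median of the 9 was 0.12 where that of all 14170 genes tested was 0.01. Each was tested with limma on log2(intensity + 16) across all genes, two-sided, with Benjamini-Hochberg adjustment at 0.05. Their adjusted p ran from 0.576 to 0.969, and 0 of 9 had an unadjusted p under 0.05, where 8.97% of all genes did. Without Mest-KO 2, 2 of them (Hira and Arvcf) had one, and with the mean of all probe sets Dgcr8 did, with adjusted p of 0.519, 0.505 and 0.383. Over all genes 12 passed higher and 9 lower, which is 0.148% of those tested. A count of 7 of 9 higher is also to be read against the 53.8% of all genes with a difference above 0, and the count was 6 of 9 with quantile normalization, with arrays centred on their medians and with the mean of all probe sets of a gene. Centring on medians moved the median of all genes to -0.05 and that of the neighbours to 0.05. Tissue of this kind is a mixture, in which fewer cells of a type and less RNA per cell cannot be told apart.

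Of the 9 genes, 4 start close to a neighbour that is read in the opposite direction, so that their start regions overlap. The regions are shown because each pair has 2 measured genes whose differences can be set side by side. They come from RefSeq (GRCm38.p6), run 5′ to 3′ on the strand of the named gene from 250 bases before its start to 50 from it, and hold 300 bases each. Capitals mark the words CCAAT or its complement ATTGG and a match to the E2F motif.
Ranbp1 (chr16:18248645-18248944, minus strand), shared with Trmt2a: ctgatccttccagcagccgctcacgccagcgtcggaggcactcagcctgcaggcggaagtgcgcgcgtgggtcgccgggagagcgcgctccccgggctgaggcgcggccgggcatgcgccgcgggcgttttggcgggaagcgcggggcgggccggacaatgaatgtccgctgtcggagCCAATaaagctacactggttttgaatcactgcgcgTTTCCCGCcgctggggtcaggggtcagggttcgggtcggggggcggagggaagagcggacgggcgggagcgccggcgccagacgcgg
Arvcf (chr16:18347932-18348231, plus strand), shared with Tango2: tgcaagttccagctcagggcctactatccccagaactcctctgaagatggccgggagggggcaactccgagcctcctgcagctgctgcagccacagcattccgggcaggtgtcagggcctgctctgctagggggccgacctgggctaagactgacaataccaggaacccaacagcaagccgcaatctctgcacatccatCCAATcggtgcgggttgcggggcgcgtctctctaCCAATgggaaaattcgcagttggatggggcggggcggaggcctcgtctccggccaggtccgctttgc
Hira (chr16:18876500-18876799, plus strand), shared with Mrpl40: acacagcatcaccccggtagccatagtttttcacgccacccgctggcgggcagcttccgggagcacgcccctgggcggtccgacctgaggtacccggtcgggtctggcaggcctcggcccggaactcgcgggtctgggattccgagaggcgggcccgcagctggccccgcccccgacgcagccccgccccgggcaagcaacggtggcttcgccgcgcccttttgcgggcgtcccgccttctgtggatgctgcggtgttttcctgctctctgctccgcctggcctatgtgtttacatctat
Cdc45 (chr16:18811923-18812222, minus strand), shared with Ufd1: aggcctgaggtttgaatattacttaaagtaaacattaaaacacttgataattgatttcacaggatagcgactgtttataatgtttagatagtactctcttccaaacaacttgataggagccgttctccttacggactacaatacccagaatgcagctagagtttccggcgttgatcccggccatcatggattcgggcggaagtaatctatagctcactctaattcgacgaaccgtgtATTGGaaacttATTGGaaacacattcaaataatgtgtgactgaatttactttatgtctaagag
The starts lie 84 bases apart for Arvcf and Tango2, 113 for Hira and Mrpl40, 189 for Ranbp1 and Trmt2a and 322 for Cdc45 and Ufd1. Arvcf has further start windows, and only the one shown is shared with Tango2. Which start the measured Arvcf transcripts used is not known. Both strands were searched for the T-box element AGGTGTGA, for CCAAT and for the E2F words TTTCCCGC, TTTGGCGC, TTTCGCGC and TTTGCCGC. No T-box match was found in the 11 windows of the 9 genes or the 2 of Tbx1, where 1.28% of all 32851 windows hold one. The E2F match of Ranbp1 is the only one among the 9 genes (2.26% of all windows hold a match), and CCAAT, held by 37.4% of all windows, was found in windows of Arvcf, Dgcr8, Dgcr2, Ranbp1, Slc25a1 and Cdc45. The Ranbp1 window is rich in CpG, with 42 CpG dinucleotides, that of Cdc45 has 11, and the median of all windows is 7.

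Tbx1 itself read 520.5, 578 and 409.9 in Mest-KO 1, 2 and 3, against 524.5, 567.3 and 446.7 in control 1, 2 and 3. The groups overlapped throughout, and the log2 difference was -0.03 ± 0.14 (SE; limma, adjusted p = 0.967). This reading does not check the labels, since the gene stays intact in the otic epithelium and the sources used here do not place the probe set against the deleted part.

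**Figure D1:**
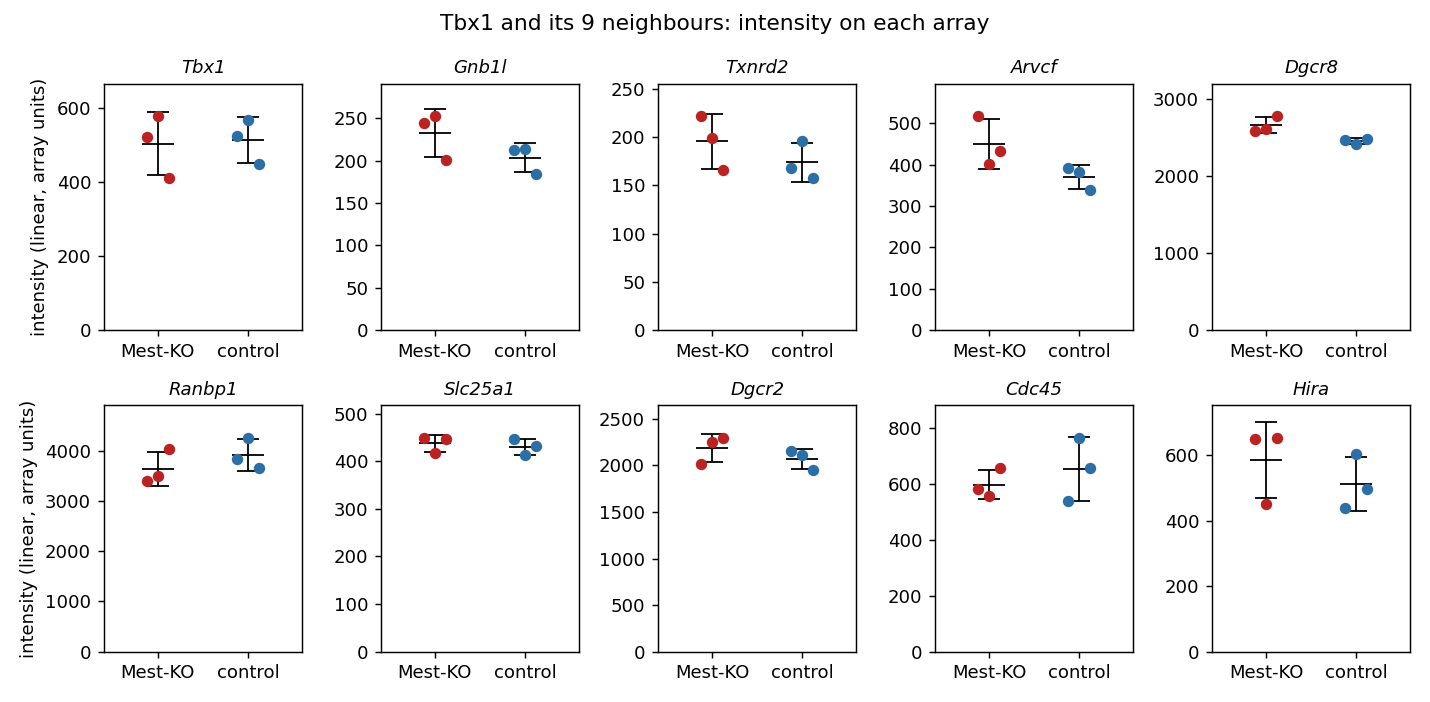
Intensity (linear, y axis from 0) of Tbx1 and of the 9 neighbours on each of the 6 arrays, Mest-KO in red and control in blue, with bars for the mean ± SD of 3 arrays. Only Arvcf and Dgcr8 have all 3 Mest-KO arrays above all 3 control arrays, by a narrow margin in each, as have 9.32% of all genes.

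Dgcr8 was 1 of the 2 neighbours that were higher in Mest-KO without overlap of the groups, as were 9.32% of all genes. It encodes the RNA-binding partner of the nuclease Drosha in the microprocessor complex. Its probe set of highest signal read 2590.4, 2616 and 2785 in Mest-KO 1, 2 and 3, against 2469.9, 2415 and 2479 in control 1, 2 and 3. Every Mest-KO array stood above every control array, by a small margin. The means were 2664 ± 106 in Mest-KO and 2455 ± 34.7 in control (SD, n = 3 arrays each), which differ by 0.12 ± 0.07 on the log2 scale (95% interval from -0.04 to 0.27; limma, adjusted p = 0.656; exact permutation p = 0.1, the smallest that 3 against 3 allows). On the fold scale this interval runs from 0.975 to 1.21.

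Dgcr8 has 3 further probe sets, and they did not read alike. Probe set 1435439_at read 858.3, 753.5 and 875.8 in Mest-KO 1, 2 and 3, against 682, 750.1 and 728.4 in control 1, 2 and 3. The groups again did not overlap, but Mest-KO 2 and control 2 nearly touched, and the difference was 0.20 ± 0.09 (limma across all 45037 probe sets, adjusted p = 0.627). Probe set 1446169_at, of low signal, read 72.5, 53.9 and 63.5 in Mest-KO 1, 2 and 3, against 28.9, 28.2 and 24.4 in control 1, 2 and 3. All 6 readings were above the highest unspiked bacterial control (11.2), and the 2 groups were well apart. Its difference of 0.87 ± 0.17 was the only one of the 23 with an unadjusted p under 0.05 in limma, a mark that 8.24% of all probe sets reach, and it did not pass after adjustment (adjusted p = 0.363). Over 13 alternatives its difference ran from 0.48 to 1.18 and its adjusted p from 0.133 to 0.783, and it passed in 0 of them. Probe set 1422981_at read 51.9, 74.6 and 144.9 in Mest-KO 1, 2 and 3, against 81.3, 69.2 and 84.6 in control 1, 2 and 3, with Mest-KO 3 far above the rest (0.08 ± 0.29; adjusted p = 0.963). Where these probe sets lie in the transcript is not given in the sources used here, and the differences between them were not tested. With the mean of all 4 probe sets, the gene differed by 0.32 on the log2 scale (limma, adjusted p = 0.383). That mean takes in the 0.87 of the dim 1446169_at, and the others differed by 0.12, 0.20 and 0.08.

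Genes that act with Dgcr8 in microRNA production did not pass the test. Of 14 tested, among them Drosha, Dicer1 and the Argonaute genes, 0 passed the limma test and 0 had an unadjusted p under 0.05, with a median difference of 0.02. The smallest p belonged to Ago4, an Argonaute gene (0.21 ± 0.16), and Tnrc6a, whose product binds Argonaute proteins (0.10 ± 0.07), and neither passed.

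Arvcf encodes a catenin of the p120 family that binds the inner side of cadherins. Its probe set of highest signal read 518.6, 400.8 and 433.4 in Mest-KO 1, 2 and 3, against 392.0, 381.9 and 337.7 in control 1, 2 and 3. The groups did not overlap, and Mest-KO 1 stood well above the other 2 Mest-KO arrays. The means were 450.9 ± 60.8 in Mest-KO and 370.5 ± 28.9 in control (SD, n = 3 arrays each), which differ by 0.27 ± 0.13 on the log2 scale (95% interval from -0.02 to 0.55; limma, adjusted p = 0.576; exact permutation p = 0.1). Without Mest-KO 1 the difference was 0.17. Of its other probe sets, 1423061_at differed by 0.27 ± 0.15, with readings of 245.3, 187.2 and 243.1 in Mest-KO 1, 2 and 3, against 194.2, 166.3 and 186.7 in control 1, 2 and 3, where Mest-KO 2 fell below control 1. Probe set 1450856_at went the other way at low signal, with 10.3, 21.9 and 21.7 in Mest-KO 1, 2 and 3, against 27.4, 22.6 and 38.1 in control 1, 2 and 3 (-0.42 ± 0.21; adjusted p = 0.640). Mest-KO 1 was there below the highest unspiked control, and without that array the difference of 1450856_at was -0.25. The probe sets of Arvcf did not agree in sign.

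Among 14 other genes tested for catenins, cadherins and proteins that act with them, such as Rhoa and Zbtb33, 0 passed, 6 were higher and 8 lower in Mest-KO, and the median was -0.01. Jup, encoding the junction protein plakoglobin, differed by 0.44 ± 0.12 (limma, adjusted p = 0.231) and Cdh1, encoding the epithelial E-cadherin, by -0.37 ± 0.11 (adjusted p = 0.278). Jup was higher and Cdh1 lower on every Mest-KO array than on any control array.

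Hira encodes a chaperone that places the histone variant H3.3 into chromatin outside of DNA replication. It read 649.7, 450.9 and 653.8 in Mest-KO 1, 2 and 3, against 437.9, 602.2 and 495.4 in control 1, 2 and 3. Replicate arrays spread so widely that Mest-KO 2 lay below control 2 and control 3, and the difference of 0.18 ± 0.16 (95% interval from -0.18 to 0.54; limma, adjusted p = 0.806) was no larger than that spread. Leaving out single arrays moved it between 0.076 (without control 1) and 0.35 (without Mest-KO 2). Of its 3 other probe sets, 1436241_s_at (-0.01 ± 0.15) and 1450049_a_at (0.05 ± 0.16) lay near 0, and the dim 1459103_at read 21.7, 29 and 21.7 in Mest-KO 1, 2 and 3, against 20.1, 17.5 and 20.2 in control 1, 2 and 3, without overlap (0.18 ± 0.15; adjusted p = 0.793). Of 11 tested genes that handle H3.3 or other H3 histones, 0 passed and 0 had an unadjusted p under 0.05 (median 0.0038). H3f3b, which encodes H3.3 itself, had the largest difference, 0.75 ± 0.35 (limma, adjusted p = 0.570). Its means were 756.1 ± 467.2 in Mest-KO and 401.8 ± 129.7 in control (SD, n = 3 arrays each). It read 374.9, 616 and 1277 in Mest-KO 1, 2 and 3, against 548.1, 300.9 and 356.4 in control 1, 2 and 3. The groups overlapped, and Mest-KO 3 stood far above the rest. Ubn2, encoding a partner of the Hira complex, differed by 0.18 ± 0.12.

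The replication gene and the nuclear transport gene were the only neighbours with a negative difference. Cdc45 encodes a subunit of the helicase that unwinds DNA at the replication fork. It read 579.4, 556.1 and 654.5 in Mest-KO 1, 2 and 3, against 536.8, 764.6 and 657.5 in control 1, 2 and 3. The controls held both the lowest and the highest reading, and the difference was -0.12 ± 0.14 (95% interval from -0.41 to 0.18; limma, adjusted p = 0.856). Without control 2 it was 0.0025, so the sign of the Cdc45 difference rested on that array. Its dim probe set 1457838_at differed by 0.21 ± 0.26.

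Ranbp1 encodes a binding protein of the GTPase Ran that assists GTP hydrolysis during nuclear export. It read 3393, 3505 and 4031 in Mest-KO 1, 2 and 3, against 3831, 4269 and 3663 in control 1, 2 and 3. Mest-KO 3 lay among the controls and the other Mest-KO arrays lay below all of them (-0.11 ± 0.09; 95% interval from -0.30 to 0.08; limma, adjusted p = 0.766). Its negative sign held in each of 15 alternatives, from -0.18 to -0.04.

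More genes of the same processes were lower than higher, and 0 passed. Of 13 tested genes of the Ran cycle, 8 were lower and 5 higher in Mest-KO, with a median of -0.05 and 0 past the threshold. Ran itself averaged 10303 ± 389 in Mest-KO and 11929 ± 1098 in control (-0.21 ± 0.07; limma, adjusted p = 0.352), and Rcc1, its nucleotide exchange factor, differed by -0.20 ± 0.08 (adjusted p = 0.487). Of 30 replication fork genes, 18 were lower and 12 higher, with a median of -0.05 and 0 past the threshold. Pold1, a DNA polymerase subunit gene, differed by 0.19 ± 0.07 and Gins2, whose product joins Cdc45 in the helicase, by -0.28 ± 0.11, and these had the smallest p of the list and opposite signs. The summed intensity of 5 tested proliferation markers of 6 listed ran from 22619 to 24584 in Mest-KO and from 23100.3 to 24498 in control, and Mest-KO 3, control 2 and control 3 were the 3 highest arrays both in this sum and in Cdc45. The part of proliferation in these readings was not tested.

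Neither mitochondrial gene passed the test. Slc25a1, the mitochondrial citrate carrier gene, read 449.8, 416.2 and 446.6 in Mest-KO 1, 2 and 3, against 445.7, 412.3 and 431.7 in control 1, 2 and 3. No gene of the 9 had a narrower spread over the 6 arrays, and its difference was 0.02 ± 0.11 (95% interval from -0.21 to 0.26; limma, adjusted p = 0.969), with a negative sign under quantile normalization and median centring. Txnrd2 encodes the mitochondrial thioredoxin reductase. It read 222.2, 198.7 and 166 in Mest-KO 1, 2 and 3, against 168.2, 196.1 and 157.1 in control 1, 2 and 3, with overlap (0.15 ± 0.15; adjusted p = 0.821). Leaving out single arrays moved it between 0.064 (without Mest-KO 1) and 0.26 (without Mest-KO 3). Its other probe sets were dim and differed by -0.17 ± 0.20, 0.07 ± 0.21 and -0.11 ± 0.25, so the 4 probe sets were split in sign.

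The cytosolic and mitochondrial partners of these genes did not pass either. Of 12 tested thioredoxin system genes, 9 were lower in Mest-KO (median -0.06), with the smallest p for Txn1, encoding cytosolic thioredoxin (-0.17 ± 0.06; limma, adjusted p = 0.416), and Prdx2, encoding a peroxiredoxin (-0.10 ± 0.05). Of 16 tested genes of citrate metabolism and mitochondrial carriers, 9 were lower and 7 higher (median -0.01), with Slc25a5, an ADP and ATP carrier gene (-0.16 ± 0.07), and Acly, whose product splits exported citrate (-0.15 ± 0.07), first by p.

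**Figure D2:**
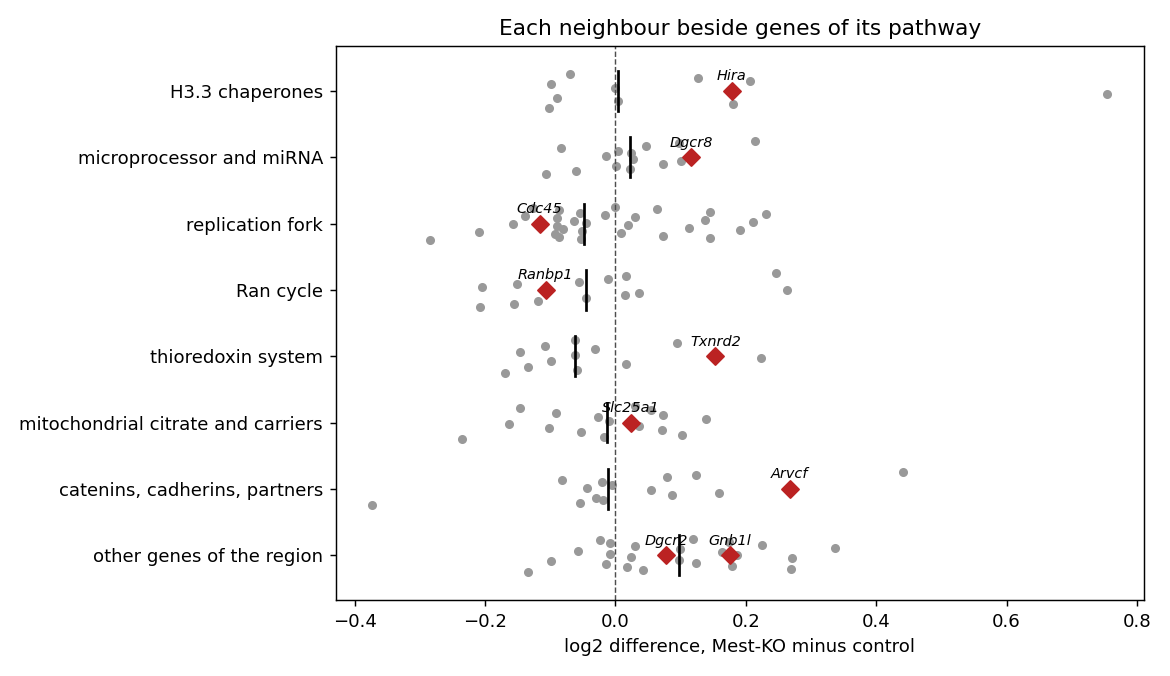
Log2 difference (Mest-KO minus control, x axis) of 7 neighbours, as red diamonds, beside the tested genes of the same process in grey, with a black line at each list's median. The bottom row holds Gnb1l and Dgcr2 beside the other genes of the region, whose median is 0.10, and no gene shown passed the threshold.

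The remaining 2 neighbours have less settled functions. Gnb1l encodes a WD-repeat protein and lies next to Tbx1. It read 244.5, 253.1 and 200.3 in Mest-KO 1, 2 and 3, against 212.6, 214.4 and 183.7 in control 1, 2 and 3, with Mest-KO 3 below 2 of the controls (0.18 ± 0.14; 95% interval from -0.13 to 0.48; limma, adjusted p = 0.763). The difference was 0.27 without Mest-KO 3 and 0.11 without control 3. Its only probe set is of the _s_at kind, which can match transcripts of more than 1 gene, so this reading is uncertain. Dgcr2 encodes a membrane protein thought to act in cell adhesion. It read 2018, 2247 and 2299 in Mest-KO 1, 2 and 3, against 2156, 2107 and 1949 in control 1, 2 and 3 (0.08 ± 0.08; adjusted p = 0.837), and its further probe sets differed by -0.06 ± 0.11 and -0.24 ± 0.15. The mean over the 3 probe sets of Dgcr2 had a negative sign, -0.075.

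Over all 23 probe sets of the 9 genes, each of which was above the 30th percentile of signal, 15 were higher and 8 lower in Mest-KO with a median of 0.08 (50.2% of all probe sets were higher), and 0 passed the limma test (0.0133% of all probe sets did). The groups did not overlap for 5 probe sets higher in Mest-KO (Dgcr8 with 3, Arvcf and Hira with 1 each) and for 1 lower (Arvcf), where 7.94% and 5.71% of all probe sets were so arranged. With 1 probe set a gene, 2 of 9 genes were higher without overlap, against 9.32% of all genes. Probe sets of the same gene share their RNA and are not replicates.

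**Figure D3:**
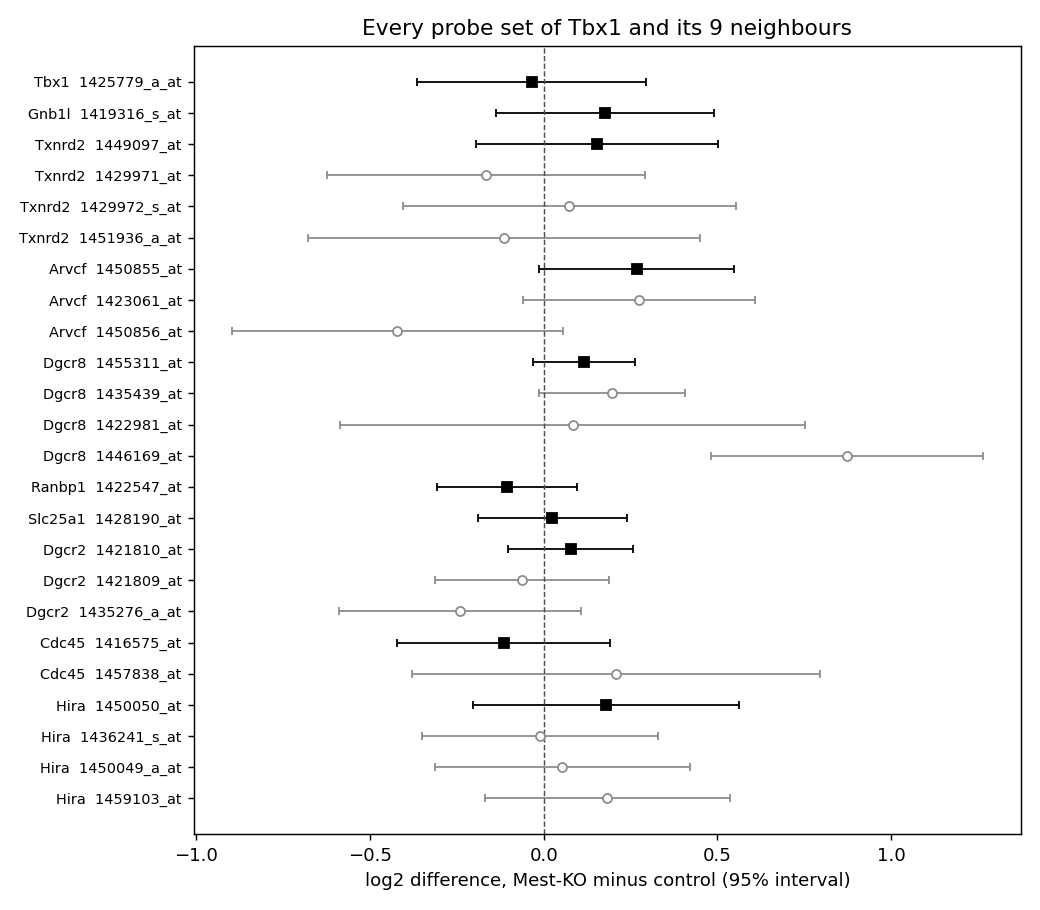
Log2 difference (Mest-KO minus control) with its 95% interval for the 23 probe sets of the 9 neighbours and the 1 of Tbx1, with filled squares for the probe set that stood for its gene. The interval of 1446169_at of Dgcr8 alone lies clear of 0, and the probe sets of Arvcf, Txnrd2, Dgcr2, Cdc45 and Hira fall on both sides of it.

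The pairs with shared start regions were set side by side. Arvcf (0.27 ± 0.13) and Tango2 (0.34 ± 0.13) were both higher in Mest-KO without overlap of the groups, and Tango2, a gene whose loss in people causes a metabolic disease, averaged 277.4 ± 23.2 in Mest-KO and 216.1 ± 16.6 in control (SD, n = 3 arrays each; limma, adjusted p = 0.454). Ranbp1 (-0.11 ± 0.09) and Trmt2a, a tRNA methyltransferase gene (0.19 ± 0.10), had opposite signs. Hira (0.18 ± 0.16) and Mrpl40, a mitochondrial ribosome gene (-0.13 ± 0.08), did too, and Cdc45 (-0.12 ± 0.14) and Ufd1, a gene of protein degradation (-0.01 ± 0.08), lay near each other. The differences within pairs were not tested, and none of the 8 genes passed.

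Along the chromosome, the side of Tbx1 that begins with Gnb1l held more genes that were higher than lower in Mest-KO. Of the 10 protein-coding genes nearest on that side 8 were tested, namely Gnb1l, Txnrd2, Arvcf, Tango2, Dgcr8, Trmt2a, Ranbp1 and Zdhhc8 (0.22 ± 0.14), and all but Ranbp1 were higher, with a median of 0.18. Of the 10 on the other side 7 were tested, Gp1bb (-0.10 ± 0.16), Cldn5 (0.04 ± 0.13), Cdc45, Ufd1, 2510002D24Rik (0.27 ± 0.15), Mrpl40 and Hira, with 3 higher, 4 lower and a median of -0.01. Within 25 genes, 16 of 18 were higher on the first side and 8 of 14 on the second, with medians of 0.11 and 0.04. Within 60 genes the counts were 35 of 46 and 22 of 37, with medians of 0.09 and 0.04. Differences there ran from -0.61 to 0.41 on the first side and from -0.25 to 0.71 on the second. On each side 3 genes within 60 had an unadjusted p under 0.05 in limma, as did 8.97% of all genes. Of all genes tested, 53.8% were higher. Centring arrays on their medians moved the median of all genes from 0.01 to -0.05, and the counts by side were not run under it. No gene within 60 on either side passed the threshold, and the difference between the sides was not tested. Of 30 other genes listed for the region 23 were tested, 16 were higher and 7 lower in Mest-KO with a median of 0.10, 0 passed, and 1 (Tango2) had an unadjusted p under 0.05. This count of 16 was 15 with quantile normalization and 12 with arrays centred on their medians.

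**Figure D4:**
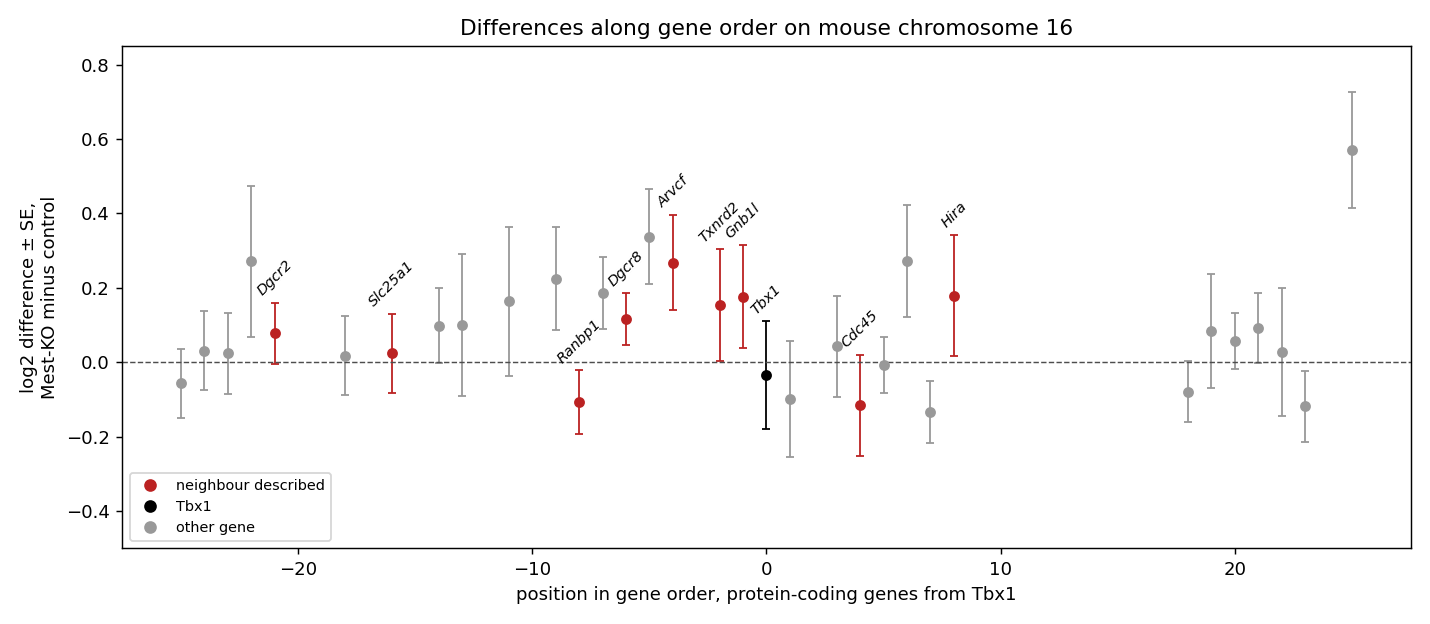
Log2 difference ± SE (Mest-KO minus control, y axis) of the tested protein-coding genes within 25 places of Tbx1 in gene order (x axis), with the 9 neighbours in red and Tbx1 in black. Ranbp1 is the only gene within 10 places on the left with a negative value, and values on the right lie on both sides of 0.

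Array by array, the neighbours did not separate the genotypes. The mean of their 9 log2 values, each relative to that gene's mean, was 0.08, -0.02 and 0.06 in Mest-KO 1, 2 and 3, against -0.07, 0.05 and -0.10 in control 1, 2 and 3. Control 2 lay among the Mest-KO arrays. The same array stood apart from the other controls in the 7 tested neural tube markers of 8 listed. Mest-KO 2 stood apart from its group there too. The markers' summed intensity was 193.7, 522.7 and 176 in Mest-KO 1, 2 and 3. In control 1, 2 and 3 it was 1685, 418.6 and 1729. All 7 were lower in Mest-KO, with a median of -1.75 and 0 past the threshold. Of them 6 had an unadjusted p under 0.05 in limma, as did 8.97% of all genes. The marker lists were chosen with earlier results of these data known, so counts within them are descriptive and not an independent test. The hindbrain neural tube lies beside the otic vesicle, and its part in the readings of the neighbours was not tested. The 6 neuron markers, all tested, were each higher in Mest-KO (median 0.27, 0 past the threshold, 3 without overlap). Their summed intensity ran from 22373 to 24007 in Mest-KO and from 18859 to 20255 in control, without overlap, and their part in the readings of the neighbours was not tested either. Among markers of the labelled tissue, Oc90, an otoconia protein gene of the otic vesicle, averaged 3484 ± 385 in Mest-KO and 3075 ± 262 in control. Twist1, a mesenchymal transcription factor gene, averaged 3369 ± 129 in Mest-KO and 3496 ± 98 in control (SD, n = 3 arrays each, for both genes). Of 6 tested otic epithelium markers of 7 listed, 4 were lower in Mest-KO (median -0.15). Otx1 (-0.79 ± 0.20, limma, adjusted p = 0.209) and Cdh1 were lower without overlap. The summed intensity of the 6 ran from 6889.9 to 8618 in Mest-KO and from 7301 to 8555 in control. Of 5 periotic mesenchyme markers 3 were lower (median -0.05), with Pou3f4 at -0.76 ± 0.21 (adjusted p = 0.260), and their sum ran from 15083 to 16386 in Mest-KO and from 15748 to 16305 in control. Of 5 tested erythroid markers 5 were lower in Mest-KO (median -0.17). Of 6 endothelial markers 6 were higher (median 0.06), and of 4 head muscle markers 3 were higher (median 0.16). Of all genes tested, 53.8% were higher. None of these markers passed, and their part in the readings was not tested.

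For each neighbour, the tested gene with the most similar profile over the 6 arrays was found from the root mean square difference of centred log2 values. It was smallest for Ranbp1 with Faap24 (0.0059) and largest for Hira with Trrap (0.043). The others were 1700008J07Rik for Gnb1l, Itga2b for Txnrd2, Tti1 for Arvcf, Tent4b for Dgcr8, Nmb for Dgcr2, Zc3h7b for Slc25a1 and Slc16a1 for Cdc45. None of these 9 is another neighbour of Tbx1, and 6 arrays leave room for close matches of this kind among 14170 genes.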

How the data were processed

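1-colour Affymetrix Mouse Genome 430 2.0 arrays were hybridised with label made from 300 ng of total RNA, per the labels' protocols. The authors deposited linear intensities, 1 per probe set, and the submitters' processing notes name Affymetrix Expression Console (version 1.1). How probes were summarized and background was corrected is not given in the sources used here. Every array had a mean of 500.002 once the 2% of probe sets at each end were set aside, which shows a common scaling that would hide a shift of most genes. Medians of the arrays were between 59.954 (control 2) and 70.6371 (Mest-KO 1), and the next lowest was 66.0473 (control 3). Precision is limited by the number of arrays.

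After removal of 64 control probe sets, 34945 carried 1 gene symbol in the platform annotation, checked by Entrez ID against RefSeq. Values were analysed as log2(intensity + 16), and differences of dim genes are understated on that scale. The probe set with the highest mean log2 value stood for its gene, and 14170 of 18193 genes, those above the 30th percentile, entered limma 3.58.1 (R 4.3.3; eBayes with trend) with genotype as the only term. A second limma fit took all 45037 probe sets with no filter. Errors of log2 differences are standard errors of the fits. Single values had exact permutation tests, 3 against 3, two-sided. The probe set fit with no filter was tested on simulated data, and the gene fit was not. Background was the highest of 27 unspiked bacterial probe sets, 11.1922.

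The members, gene lists and marker lists were chosen with earlier results of these data known. Zfp74, listed for the region, was dropped after seeing the data because RefSeq does not place it within 60 genes of Tbx1. Named besides the 9 genes and Tbx1 were, in each list, genes past the threshold or otherwise the 2 with the smallest p, the 10 genes to each side of Tbx1 and the most similar profiles. In addition H3f3b and the tissue markers are described further and Drosha, Dicer1 and the Argonaute genes named for their roles. Alternatives were other normalizations, pseudocounts of 1 and 64, filters, probe set rules, eBayes without trend, a replicate block and leaving out each array.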

Additional observations from a re-analysis of the deposited data

How the results depend on the processing

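With 3 arrays a group changes could be missed, and the smallest change that would pass the threshold was not computed. The intervals given are not adjusted for the number of genes, so they do not set that limit. Probe set 1446169_at of Dgcr8, at 0.87 with an interval from 0.48 to 1.26, did not pass (limma, adjusted p = 0.363). The number of neighbours past the threshold was 0 under each of 15 alternatives, and that of their probe sets 0 under each of 13. The count of all genes past it was 21 and moved to 78 with arrays centred on their medians, 2 with no filter, 6 with the mean of all probe sets, 1 with eBayes without trend and 9 with the replicate block, and it ran from 2 to 82 with single arrays left out, lowest without control 1 and highest without control 2. The cause was not tested. The replicate numbers do not pair the arrays (correlations of deviations from -0.15 to -0.03 between same-numbered arrays), and the replicate block left every neighbour short of the threshold. The sign reversed under at least 1 alternative for Slc25a1, Txnrd2, Dgcr2, Cdc45 and Tbx1. Slc25a1 went to -0.0029 with quantile normalization, -0.041 with median centring and, without control 2, -0.0043. With the mean of all probe sets, Txnrd2 went to -0.014, Dgcr2 to -0.075 and Cdc45 to 0.046. Leaving out single arrays moved Cdc45 between -0.25 and 0.0025, Tbx1 between -0.14 and 0.10 and Slc25a1 between -0.0043 and 0.059. Without Mest-KO 3 Tbx1 was 0.10, without control 2 it was 0.04 and Cdc45 0.0025. Gnb1l, Hira, Arvcf, Dgcr8 and Ranbp1 kept their sign in all 15. The counts of higher genes, 6 or 7 of 9 neighbours and 12 to 18 of the other region genes, and the probe sets of Dgcr8 and Arvcf were run under these alternatives after seeing the data.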
